A study of Mus musculus with 58 samples.

Results

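Ribosome footprints were compared with the RNA of the same lysate in the striatum of 7 wild-type mice, to find which transcripts are rich or poor in footprints relative to their RNA and whether this holds in both mouse lines of the study. The animals were chosen by their labels as the wild-type animals for which both assays were made, and they give 14 of the 58 libraries of the series, 7 of footprints and 7 of RNA. All are males of strain B6129S by their labels. Of these, 4 animals (footprint libraries RIBO-498, RIBO-499, RIBO-505 and RIBO-517) are wild-type mice of the 16p11.2 line, the colony in which other animals carry a hemi-deletion of the 16p11.2 region. The other 3 animals (RIBO-300, RIBO-301 and RIBO-318) are wild-type mice of the 3g line, the colony in which other animals carry a hemi-deletion of Taok2, Sez6l2 and Mvp. Their RNA libraries carry the same numbers, and animals are named here by their footprint library. None of the 7 animals carries a deletion by its label, no treatment is named, and the study's methods give 1 age range, of young adults, for its experiments in general without describing these libraries. The lines are sampled by few animals, and line and any processing batch cannot be told apart.

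A translating ribosome covers a short stretch of mRNA and protects it from nuclease, so the protected fragments, called footprints, count the ribosomes on each transcript, and the RNA of the same lysate counts the transcripts. The ratio of footprints to RNA is often read as translational efficiency. Transcripts of ribosomal proteins and elongation factors are known to be held back from ribosomes through a run of pyrimidines at their 5′ end, ferritin transcripts through an iron-responsive hairpin in their 5′ leader, and mitochondrial transcripts are read by the ribosomes of the mitochondrion itself. The striatum consists mostly of spiny projection neurons of the direct and indirect pathways, with interneurons and glia.

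Footprint libraries held between 342052 and 611890 counts and RNA libraries between 15102576 and 19122488, so the error of a ratio comes mostly from the footprint side. Levels are given in CPM, the count scaled to a common library size after normalization, and 1 CPM stood for at most 0.580 footprint counts but at least 11.9 RNA counts. The summed RNA level of 9 projection neuron markers was between 1863 and 2870 CPM and none of them was at 0 in all libraries, while 3 cortical neuron markers summed to between 198 and 547 CPM and 3 choroid plexus markers to between 1.82 and 14.1 CPM. The dissections therefore held the labelled tissue with a variable amount of cortical RNA, and its part in the results was not tested.

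Footprint and RNA levels differed for many genes. Over the 7 animals, with the animal as a block, 7608 of 13621 genes tested passed a Benjamini-Hochberg adjusted p of 0.05 in the quasi-likelihood test of edgeR ("called" in what follows), 3618 of them with more footprints than RNA (26.6% of the genes tested) and 3990 with fewer (29.3%). At least 2-fold, 2136 genes were richer in footprints (15.7%) and 2243 poorer (16.5%). These directions are relative to the library as a whole: when libraries were scaled by their totals alone, the median log2 ratio of all genes moved from -0.01 to 0.37 and the split became 5169 richer and 2445 poorer. A log2 ratio below is the fitted log2 of footprints over RNA, with its standard error (SE), unless it is said to be that of 1 animal.

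The ratios of the 2 lines, which share no animals, were close for most genes. In the 16p11.2 line 2819 genes were called richer in footprints (20.6%) and 3490 poorer (25.5%) of 13682 tested, and in the 3g line 2361 (16.9%) and 2991 (21.4%) of 13963. Over 13443 genes tested in both lines, 4374 were called in both, which is 70.7% of the calls of the 16p11.2 line and 84.1% of those of the 3g line. Of these, 1762 were richer in both lines, 2608 were poorer in both, and 4 had opposite directions. Across these genes, which are not independent replicates, Pearson's r between the log2 ratios of the lines was 0.830 and Spearman's rho 0.8288. Over the 6585 genes with a mean of at least 20 CPM in the 14 libraries, r was 0.949. Animals of 1 line correlated with each other hardly more than animals of different lines: over these 6585 genes, r between the ratios of 2 animals was between 0.826 and 0.891 within a line (9 pairs) and between 0.802 and 0.882 between lines (12 pairs).

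**Figure D1:**
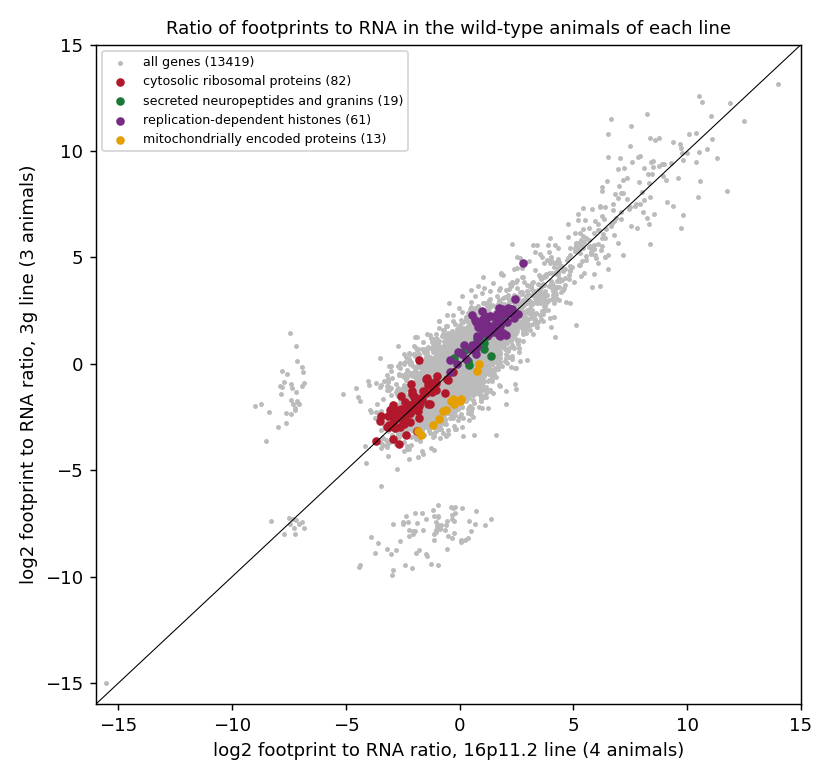
Fitted log2 footprint to RNA ratio of 13419 genes in the 4 wild-type animals of the 16p11.2 line (horizontal axis) and the 3 of the 3g line (vertical axis), both without further units, with 4 gene lists in colour and the line of equal ratios in black. Ribosomal protein genes lie at low and histone genes at high ratios in both lines, mitochondrially encoded genes lie below the line of equal ratios, and the detached points under -6 are the 43 and 86 genes without a footprint in any animal of the 16p11.2 or 3g line.

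Transcripts of the cytosolic ribosomal proteins, the subunits of the ribosome that reads nuclear mRNAs, were the list poorest in footprints. Of 82 members tested, 81 were called lower in footprints (98.8%, against 29.3% of all genes tested) and none higher. The member not called was Rps27l, at a log2 ratio of -0.59 ± 0.50 (SE). The median log2 ratio of the list was -2.10, against -0.01 for all genes tested, and in single animals it lay between -2.15 and -1.94. In the 16p11.2 line 80 members were called lower and in the 3g line 73, with medians of -2.18 and -2.08. Several ribosomal protein genes have near-identical copies elsewhere in the genome, and how reads shared with a copy were counted is not given in the sources used here.

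The list spanned a wide range. The RNA of Rpl39, a small protein of the large subunit, was between 100 and 142 CPM (median 132), and its footprints were between 1.94 and 17.1 CPM (median 12.1). RNA was above footprints in all 7 animals without overlap, and the log2 ratio was -3.64 ± 0.20. Rps15, a protein of the small subunit, had 238 to 356 CPM of RNA (median 288) and 25.6 to 62.7 CPM of footprints (median 38.7), again without overlap, for a log2 ratio of -2.79 ± 0.15. At the other end stood Rplp1, a protein of the stalk that recruits elongation factors, with 223 to 343 CPM of RNA (median 320) and 188 to 287 CPM of footprints (median 240). Its levels overlapped between the assays, its log2 ratio was -0.29 ± 0.12 and its sign turned to 0.09 under library totals alone and to 0.02 with RNA thinned to the depth of the footprints. Rplp0, another stalk protein, did not share the position of Rplp1: its log2 ratio was -2.11 ± 0.19.

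The start of these genes was looked up because the pyrimidine run named above lies there. RefSeq gives a start sequence for 61 of the 82 ribosomal protein genes and for 10575 of the 13621 genes tested. Where a gene has several annotated starts, the one with the longest run was used. A run of at least 8 bases that begins with C and holds only C and T, read on the gene's own strand from 10 bases before to 20 bases after the annotated start, was found in 25 of these 61 (41%) and in 1204 of the 10575 (11.4%). It was found in 12.4% of the genes called at least 2-fold poorer that are not ribosomal protein genes and in 10.8% of those called at least 2-fold richer. Within the ribosomal protein genes the ratio did not follow it: the median log2 ratio was -2.12 in the 25 genes with the run and -2.16 in the 36 without. The annotated start is not always the start used, so a gene without the run in this window may still have it.

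The windows are shown for the 6 ribosomal protein genes with the lowest ratios that hold the run, for 2 elongation factors and for 2 genes of secreted granins that were rich in footprints, to let the starts be compared. Coordinates are of GRCm38.p6, the sequences are from RefSeq, and capitals mark the run where it has at least 8 bases.
Rpl39 (chrX:37085203-37085232, minus strand): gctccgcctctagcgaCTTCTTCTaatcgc
Rpl35a (chr16:33056472-33056501, plus strand): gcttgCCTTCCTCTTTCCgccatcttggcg
Rpl19 (chr11:98026914-98026943, plus strand): tCTCCCCTTCgcagataatgggcggagcct
Rpl22l1 (chr3:28805498-28805527, plus strand): gcgcaagcccgttCTCTTCCCacggctgca
Rps27 (chr3:90213629-90213658, minus strand): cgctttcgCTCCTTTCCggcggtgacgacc
Rpl15 (chr14:18270967-18270996, minus strand): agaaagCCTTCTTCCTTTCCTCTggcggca
Eef1a1 (chr9:78481705-78481734, minus strand): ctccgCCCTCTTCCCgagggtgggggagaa
Eef2 (chr10:81176621-81176650, plus strand): aaggccgggcgttgacgtcagcggtctctt
Scg2 (chr1:79440007-79440036, minus strand): tccggtgctgaaacggcccgagccctcact
Chgb (chr2:132781632-132781661, plus strand): cctgcccttcataagagccaggcctgcgcc
Rpl15 had the longest run of these, 17 bases, and Rpl39 and Rpl22l1 the shortest with 8. Eef1a1 held a run of 10 bases, while the windows of Eef2, Scg2 and Chgb held none of at least 8 bases. In Eef2 a run of 5 bases reaches the end of the window, so its full length is not known. The marked run of Rpl19 lies wholly before the annotated start.

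Elongation and initiation factors, which work with the ribosome, were mostly poor in footprints as well. Of 47 members tested, 30 were lower in footprints (63.8%, against 29.3% of all genes tested) and 5 higher (10.6%, against 26.6%). The median log2 ratio was -1.09. Eef1a1, which brings aminoacyl-tRNA to the ribosome, had 821 to 1288 CPM of RNA (median 976) and 76.0 to 155 CPM of footprints (median 128). The assays did not overlap and footprints were 8.48-fold lower (log2 ratio -3.08 ± 0.13). Its paralog Eef1a2, the form of mature neurons and muscle, had 168 to 204 CPM of RNA (median 180) and 186 to 319.4 CPM of footprints (median 224). These overlapped, and the log2 ratio was 0.33 ± 0.12, so the 2 forms of 1 factor stood more than 3 log2 units apart. Pabpc1, the poly(A)-binding protein, was at -2.05 ± 0.14, Eef2, the translocase, at -1.08 ± 0.11 and Tpt1 at -0.87 ± 0.13, all 3 without overlap of the assays. Among initiation factors the ratio ran from -2.68 ± 0.24 for Eif3e to 1.48 ± 0.22 for Eif3i, both subunits of eIF3, and Eif4g1, the scaffold of the cap-binding complex, was at 0.95 ± 0.13.

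Both ferritin transcripts lay below the median of the ribosomal protein genes. Fth1, the heavy chain of the iron store, had 4016 to 6052 CPM of RNA (median 4535) and 428 to 1104 CPM of footprints (median 751), and Ftl1, the light chain, 229 to 357 CPM of RNA (median 257) and 21.6 to 44.7 CPM of footprints (median 32.7). Neither overlapped between assays, and footprints were 6.70-fold and 8.13-fold lower (log2 ratios -2.74 ± 0.16 and -3.02 ± 0.15). Of the 7 genes listed for an iron-responsive element, 4 were lower in footprints (57.1%, against 29.3% of all genes tested) and 1 higher (14.3%, against 26.6%). Tfrc, the transferrin receptor, which carries its elements in the 3′ UTR, was at -0.72 ± 0.16.

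Genes named Zfp, most of which encode zinc finger transcription factors, were a large list poor in footprints. Of 354 tested, 188 were lower (53.1%, against 29.3% of all genes tested) and 28 higher (7.91%, against 26.6%), with a median of -0.90. Zfp644 had 597 to 836 CPM of RNA (median 669) and 39.4 to 100.3 CPM of footprints (median 55.2), 11.5-fold lower without overlap (log2 ratio -3.52 ± 0.14). Zfp648 went the other way, with 1.22 to 2.88 CPM of RNA (median 1.74) and 57.0 to 108 CPM of footprints (median 68.8), for a log2 ratio of 5.25 ± 0.22. Regulators of splicing rich in arginine and serine were likewise lower on balance: 12 of 20 were lower (60%) and 4 higher (20%), with a median of -0.50. Tra2b was at -1.42 ± 0.18 and Srsf1 at -1.38 ± 0.14, while Srsf4 was at 1.05 ± 0.14.

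The 2 long noncoding RNAs tested from the list gave footprints too, and both were poorer in footprints than in RNA. Tug1 had 140 to 166 CPM of RNA (median 160) and 20.9 to 66.4 CPM of footprints (median 39.4), without overlap, at a log2 ratio of -1.93 ± 0.15. Snhg11, a host gene of small nucleolar RNAs, had 1123 to 1722 CPM of RNA (median 1306) and 578 to 986 CPM of footprints (median 741), at -0.82 ± 0.12. Its footprints were thus about as many, for its RNA, as those of Map2 at -1.03 ± 0.12, a gene that codes for a dendritic protein. The count tables do not show where on a transcript its footprints lie.

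The 12 genes poorest in footprints, among those called in both lines with a mean of at least 20 CPM, were Cdr1, Rpl10-ps3, Rpl39, Mlip, Zfp644, Ankib1, Bbs9, Olfr285, Zfp62, Crebrf, Kansl1l and Rps27rt. Cdr1 had 133 to 1461 CPM of RNA (median 771) and no footprint in any of the 7 libraries, so its footprints were at least 804-fold lower (taking 3 counts over all 7 libraries as the limit that a count of 0 allows, for counting error only). Its locus is also known for an abundant circular RNA from the other strand, and without the strand setting of the counting, reads of the 2 cannot be told apart. Rpl10-ps3 and Rps27rt are near copies of ribosomal protein genes, so their counts are uncertain. Mlip, which encodes a lamin-interacting protein, had 279 to 737 CPM of RNA (median 393) and 18.96 to 78.7 CPM of footprints (median 26.3). Crebrf, a regulator of the CREB3 transcription factors, had 545 to 829 CPM of RNA (median 630) and 34.2 to 93.0 CPM of footprints (median 63.1). Neither gene overlapped between assays in any animal, and their log2 ratios were -3.63 ± 0.16 and -3.34 ± 0.15. Beside Cdr1, the log2 ratios of the 12 genes lay between -4.29 ± 0.26 and -3.25 ± 0.19.

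**Figure D2:**
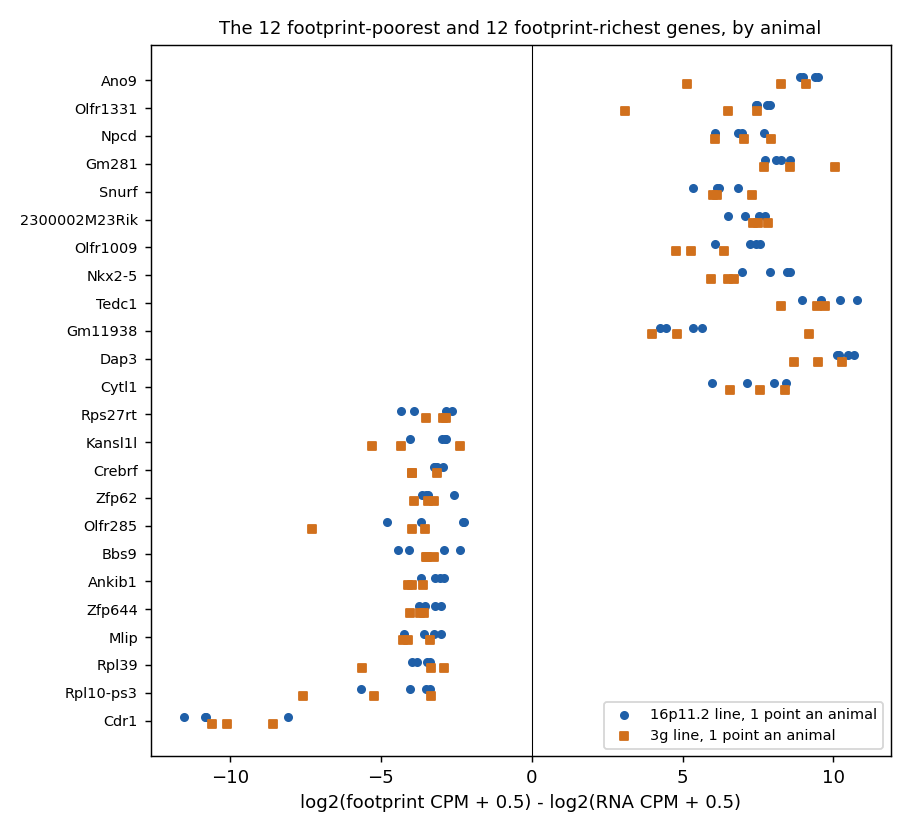
Log2 footprint to RNA ratio in each of the 7 animals, from CPM with 0.5 added to both (horizontal axis), of the 12 genes poorest and the 12 richest in footprints (vertical axis), with 1 point an animal in the colour of its line. Every poor gene is below 0 and every rich gene above 0 in all 7 animals, which their selection by calls in these same animals nearly ensures. Gm11938, Ano9 and Olfr1331 each have 1 animal of the 3g line, RIBO-300, far from the rest.

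Secreted proteins stood at the other side. Of 19 neuropeptide precursors, granins and their processing enzymes, 15 were richer in footprints (78.9%, against 26.6% of all genes tested) and none poorer. Their median log2 ratio was 0.97. Penk, the precursor of enkephalin and the peptide of indirect-pathway neurons, had 177 to 304 CPM of RNA (median 239) and 515 to 1202 CPM of footprints (median 746). The assays did not overlap and footprints were 3.18-fold higher (log2 ratio 1.67 ± 0.12). Vgf, a granin, had 42.8 to 68.7 CPM of RNA (median 58.0) and 128 to 293 CPM of footprints (median 203), 3.35-fold higher without overlap. Cpe, the carboxypeptidase that trims the peptides, had 555 to 635 CPM of RNA (median 610) and 1166 to 2234 CPM of footprints (median 1415), 2.41-fold higher without overlap. Tac1, the precursor of substance P and the peptide of direct-pathway neurons, was not called, at 0.22 ± 0.14, and neither was Pcsk1n, at 0.01 ± 0.12.

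Collagens and other proteins of the basement membrane, secreted along the same route, were richer in footprints for 14 of 18 members tested and poorer for none. The median was 1.14, and the richer share was 77.8%, against 26.6% of all genes tested. Col4a2, a chain of the collagen of the basement membrane, had 11.3 to 19.5 CPM of RNA (median 17.4) and 24.3 to 72.2 CPM of footprints (median 53.1), without overlap, at a log2 ratio of 1.52 ± 0.18. Lamc1, a laminin chain, was at 0.82 ± 0.16 and Sparc at 1.00 ± 0.13. Many members of this list are expressed at under 20 CPM in this tissue.

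Among astrocyte markers, genes of secreted proteins and genes of membrane proteins lay on different sides. In bulk tissue, fewer cells of a type and less RNA per cell cannot be told apart, but a ratio within an animal compares the same cells in both assays. Of 22 astrocyte markers, 12 were richer in footprints (54.5%, against 26.6% of all genes tested) and 5 poorer (22.7%, against 29.3%). Apoe, the lipid carrier that astrocytes secrete, had 249 to 386 CPM of RNA (median 280) and 1170 to 2659 CPM of footprints (median 1389). Clu, the secreted chaperone clusterin, had 131 to 183 CPM of RNA (median 159) and 602 to 1299 CPM of footprints (median 872). Both were without overlap, 5.20-fold and 5.51-fold higher (log2 ratios 2.38 ± 0.13 and 2.46 ± 0.12). Cst3, a secreted protease inhibitor, was at 1.66 ± 0.12 and Sparcl1 at 1.47 ± 0.12. Among the poorer ones were membrane channels and transporters and an enzyme: Aqp4, the water channel, at -1.24 ± 0.16, Slc1a2, the main glutamate transporter, at -0.98 ± 0.14 and Glul, glutamine synthetase, at -0.76 ± 0.11. Of 17 microglia markers, 9 were richer (52.9%) and none poorer. These included Csf1r, the receptor these cells need to survive, at 1.78 ± 0.15, and the lysosomal protease Ctss at 1.66 ± 0.20, while Cx3cr1 (-0.45 ± 0.19) and P2ry12 (-0.35 ± 0.19) were not called.

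Myelin genes went both ways, with 10 of 23 oligodendrocyte markers richer (43.5%, against 26.6% of all genes tested) and 9 poorer (39.1%, against 29.3%). Mobp, a myelin protein whose mRNA travels into the processes, had 825 to 1860 CPM of RNA (median 1119) and 201 to 446 CPM of footprints (median 339), without overlap, at a log2 ratio of -1.90 ± 0.12. Mbp, the main protein that compacts myelin and another localized mRNA, was at -1.08 ± 0.13. Mag, a membrane glycoprotein of myelin, had 41.5 to 58.4 CPM of RNA (median 50.5) and 173 to 268 CPM of footprints (median 181), without overlap, at 1.93 ± 0.11. Ptgds, which makes prostaglandin D2 and is secreted, was at 1.93 ± 0.13 and Trf, secreted transferrin, at 1.88 ± 0.12. Markers of one cell type thus differed from each other by more than 3 log2 units in the same lysates.

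The same was seen among the genes of the projection neurons, of which 19 of 39 were poorer and 13 richer, with a median of -0.29. These are 48.7% poorer, against 29.3% of all genes tested, and 33.3% richer, not far from their 26.6%. Arpp21, a phosphoprotein regulated by cAMP, had 1752 to 3312 CPM of RNA (median 2069) and 375 to 863 CPM of footprints (median 667), without overlap, at -1.84 ± 0.14. Transcription factors were on the same side, with Meis2 at -1.81 ± 0.14, Foxp2 at -1.28 ± 0.16, Foxp1 at -1.09 ± 0.11 and Bcl11b at -0.69 ± 0.12. Drd1, the dopamine receptor of the direct pathway, was at -0.67 ± 0.13 and Pde10a, which degrades cyclic nucleotides, at -0.62 ± 0.11. Drd2, the dopamine receptor of the indirect pathway, was not called (0.14 ± 0.13), nor was Ppp1r1b, the dopamine-regulated phosphoprotein DARPP-32 (0.06 ± 0.11). Adora2a, the adenosine receptor of the indirect pathway, was richer at 0.49 ± 0.12, as were Chrm4, a muscarinic receptor, at 1.19 ± 0.18 and Adcy5, the striatal adenylyl cyclase, at 0.97 ± 0.12.

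Synaptic genes were found on both sides. Of 35 genes of the postsynaptic density or of dendritic mRNA, 13 were poorer and 9 richer, and of 34 genes of presynaptic vesicle release 17 were poorer and 11 richer, with medians of -0.10 and -0.28. For the first list these are 37.1% poorer and 25.7% richer, near the 29.3% and 26.6% of all genes tested, and for the second 50.0% and 32.4%. Dlg2, a scaffold of the postsynaptic density, had 846 to 947 CPM of RNA (median 910) and 163 to 281 CPM of footprints (median 250), without overlap, at -1.90 ± 0.12, whereas its paralog Dlg4 was not called, at 0.16 ± 0.11. Grin2b, a subunit of the NMDA receptor, was at -1.10 ± 0.12 and Grin1, the subunit that all these receptors contain, at 2.03 ± 0.11. Shank3, another scaffold, was at 0.89 ± 0.12. Camk2a, whose mRNA is abundant in dendrites, was not called. On the presynaptic side Rims2 and Rims1, organizers of the active zone, were at -1.68 ± 0.12 and -1.50 ± 0.12, and Slc32a1, the vesicular GABA transporter, was at 1.43 ± 0.13. Scaled by library totals alone, the medians of these 2 lists were 0.28 and 0.10 and those of projection neuron and oligodendrocyte genes 0.09 and 0.24, so their signs turned, with all 4 still under the 0.37 of all genes.

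Enzymes of glycolysis leaned to footprints, with 12 of 17 richer (70.6%) and 1 poorer (5.88%) and a median of 0.53. The lean was larger in the 3g line, with 11 called richer and a median of 0.77, than in the 16p11.2 line, with 6 and 0.32. Medians of single animals were between 0.65 and 0.83 and between 0.03 and 0.62, and 0 members were called for a difference between the lines. Eno2, the enolase of neurons, had 123 to 174 CPM of RNA (median 163) and 243 to 317 CPM of footprints (median 291), without overlap, at 0.85 ± 0.11. Aldoa was at 0.60 ± 0.13, Gapdh at 0.53 ± 0.16 and Pfkl at 1.05 ± 0.17, and the poorer one was Pfkp at -0.33 ± 0.12, whose sign turned to 0.05 under library totals alone. The 76 nuclear genes of oxidative phosphorylation tested had 26 richer and 21 poorer members and a median of 0.10, and these 34.2% and 27.6% are near the 26.6% and 29.3% of all genes tested. Small subunits were on both sides, with Cox7c at -1.37 ± 0.15 and Uqcr10 at 0.87 ± 0.14, and Cycs, cytochrome c, was at -1.65 ± 0.21.

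**Figure D3:**
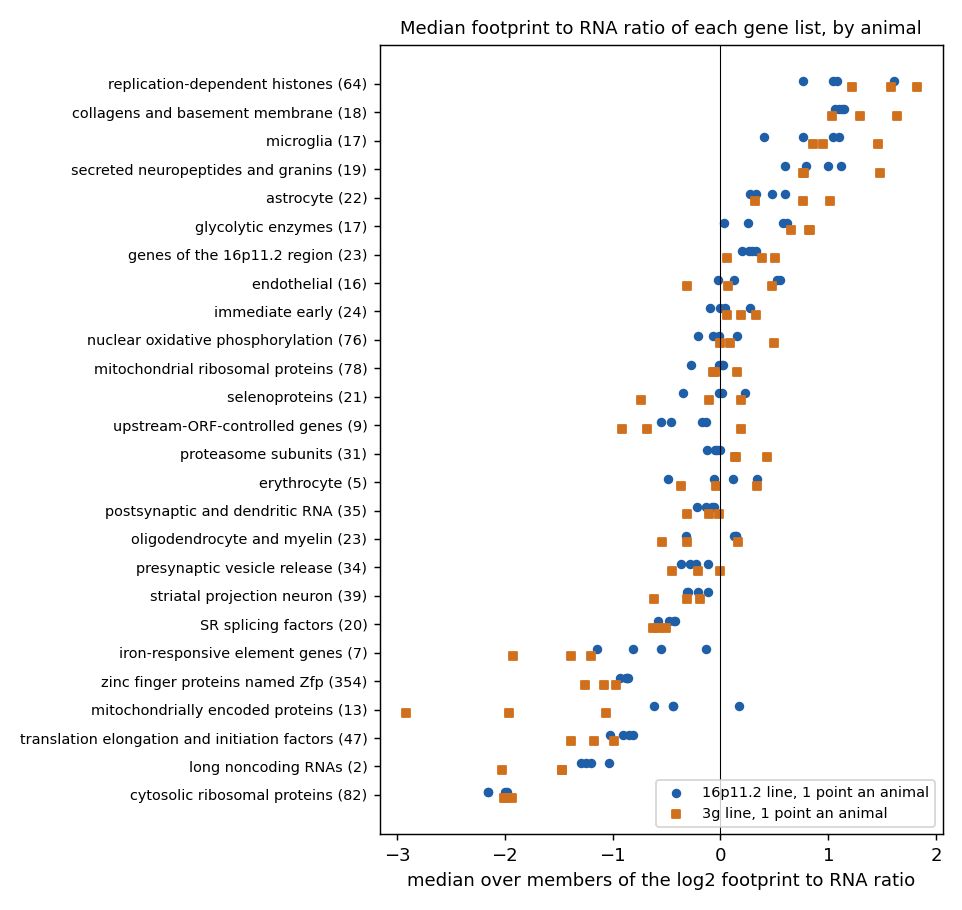
Median log2 footprint to RNA ratio of each of 26 gene lists in each of the 7 animals (horizontal axis, from CPM with 0.5 added), lists ordered by their median over all animals with the number of members tested in parentheses (vertical axis). Ribosomal proteins lie between -2.15 and -1.94 in all 7 animals, and mitochondrially encoded genes spread from -2.92 to 0.17 with all 3 animals of the 3g line under the 4 of the 16p11.2 line. The 3g animals also lie lower for Zfp genes (at most -0.97, against at least -0.93), iron-responsive element genes (-1.20 and -1.15) and long noncoding RNAs (-1.47 and -1.29). They lie higher for glycolytic enzymes (at least 0.65, against at most 0.62) and proteasome subunits (0.13 and -0.002).

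Replication-dependent histone genes were the list richest in footprints by its median. Of 64 tested, 50 were richer (78.1%, against 26.6% of all genes tested) and none poorer, with a median of 1.56 and a median RNA level of 2.80 CPM. Their mRNAs end in a stem-loop instead of a poly(A) tail, and the labels give the molecule as polyA RNA, although the protocol text does not say how the lysate RNA was selected. Hist1h4d, a gene of histone H4, had 9.37 to 16.9 CPM of RNA (median 14.4) and 53.1 to 107 CPM of footprints (median 66.9), without overlap, at 2.39 ± 0.16. Hist1h4c and Hist1h4f were at 2.46 ± 0.19 and 2.76 ± 0.22. The H4 genes encode near-identical sequences, so reads may be shared among them, and their values are uncertain singly. Hist3h2a was not called, at -0.40 ± 0.22.

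Some genes gave footprint counts with almost no RNA. Of the 290 genes tested with a mean RNA level under 1 CPM, 80 had a mean of at least 20 CPM of footprints. All 80 were called higher, but these limits alone put footprints far above RNA, so the calls add nothing to them. Genes with so little RNA also passed the filter on low counts mainly through their footprints. Of 95 genes with a mean of at least 20 CPM that were called at least 16-fold richer, 37 had under 1 CPM of RNA. Olfactory or vomeronasal receptors, which act in the sensory epithelia of the nose, were 9 of them. Of 39 such receptors tested at any level, 24 were called higher, where 26.6% of all genes tested were. Receptors with little RNA were tested mainly because they had footprints, so no excess over all genes can be read from this count. The 12 richest genes called in both lines were Ano9, Olfr1331, Npcd, Gm281, Snurf, 2300002M23Rik, Olfr1009, Nkx2-5, Tedc1, Gm11938, Dap3 and Cytl1. Ano9, of the anoctamin family of membrane proteins, had no RNA count in any library and 17.1 to 359 CPM of footprints (median 252), which is at least 8009-fold higher when the RNA is set at 3 counts over all 7 libraries. Olfr1331, an olfactory receptor, had no RNA count either and 3.80 to 120 CPM of footprints (median 87.2), at least 2680-fold higher. Nkx2-5, a transcription factor of the heart, had 0 to 0.144 CPM of RNA and 30.04 to 187 CPM of footprints (median 81.0). The footprints of Ano9 and Olfr1331 were lowest in RIBO-300. Snurf and Npcd, also without any RNA count (at least 1469-fold and 2332-fold higher), overlap other genes in the genome, and how reads over overlapping genes were assigned is not given in the sources used here.

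The largest by counts of the 12 richest genes was Dap3, a protein of the mitochondrial ribosome. Its RNA was not low, between 16.4 and 20.2 CPM (median 18.9), where the median of all genes tested was 17.5 CPM. Its footprints were between 6964 and 32835 CPM (median 22552), far above the RNA in every animal (log2 ratio 10.04 ± 0.29). Together with Obsl1 and Mettl26 it held between 2.21% and 6.77% of all footprint counts of a library. Kdr, a VEGF receptor of endothelial cells, had 1.40 to 4.67 CPM of RNA (median 3.35) and 124 to 490 CPM of footprints (median 197), without overlap, at 6.06 ± 0.19. Of the 16 endothelial markers tested, 5 including Kdr were richer in footprints (31.2%) and 2 poorer (12.5%). The shares over all genes tested were 26.6% and 29.3%. Slc2a1, the glucose transporter of the blood-brain barrier, was at 0.65 ± 0.21, Cldn5, of tight junctions, at 0.82 ± 0.28 and Flt1, another VEGF receptor, at -0.59 ± 0.21. The counts do not show whether such footprints are spread over the reading frame or stacked at 1 place.

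The 3 genes deleted in the 3g line are intact in these animals, and their ratios differed. Sez6l2, a neuronal membrane protein, had 59.7 to 88.9 CPM of RNA (median 78.1) and 188 to 385 CPM of footprints (median 283), without overlap, for footprints 3.60-fold higher (log2 ratio 1.85 ± 0.11). Taok2, a kinase of dendrites and spines, had 103 to 122 CPM of RNA (median 110) and 105 to 145 CPM of footprints (median 128), which overlapped, and was not called (0.16 ± 0.12). Mvp, the major vault protein, had 3.02 to 4.83 CPM of RNA (median 3.86) and 0 to 11.1 CPM of footprints (median 6.89), from 18 footprint counts in all, and was not called (0.32 ± 0.49). Among the 23 genes of the 16p11.2 region that were tested, 9 were richer in footprints (39.1%) and 3 poorer (13%). The shares over all genes tested were 26.6% and 29.3%. Among the region's genes with a mean of at least 20 CPM, Sez6l2 had the highest ratio. Bola2, which takes part in the handling of iron-sulfur clusters, had the lowest, at -1.06 ± 0.17. Mapk3, the kinase ERK1, was at -0.83 ± 0.13 and Kctd13, an adaptor of a ubiquitin ligase, at 0.50 ± 0.14. None of these genes was called for a difference between the lines.

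The ratio differed between the lines for few genes. The interaction of assay and line was called for 28 of 13621 genes, 26 with a higher ratio in the 16p11.2 line (0.191% of the genes tested) and 2 with a higher ratio in the 3g line (0.0147%), and 910 genes had an unadjusted p under 0.05. Without the animal as a block 3 genes were called, and without 1 animal in turn between 6 (without RIBO-499) and 69 (without RIBO-318).

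Mitochondrially encoded genes made up 8 of the 28. These 13 genes encode subunits of the respiratory chain and ATP synthase. They took between 30.5% and 41.3% of the footprint counts in the 16p11.2 line and between 10.4% and 26.7% in the 3g line, which do not overlap, while their share of the RNA counts was between 40.5% and 50.4% and between 42.6% and 44.2%. Over the 7 animals 10 of the 13 were poorer in footprints (76.9%, against 29.3% of all genes tested) and 1 richer (7.69%, against 26.6%). Their median log2 ratio was -0.36 in the 16p11.2 line and -1.88 in the 3g line, and that of single animals ran from -0.62 to 0.17 and from -2.92 to -1.07. The median difference of the 13 genes between the lines was 1.59 on the log2 scale.

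**Figure D4:**
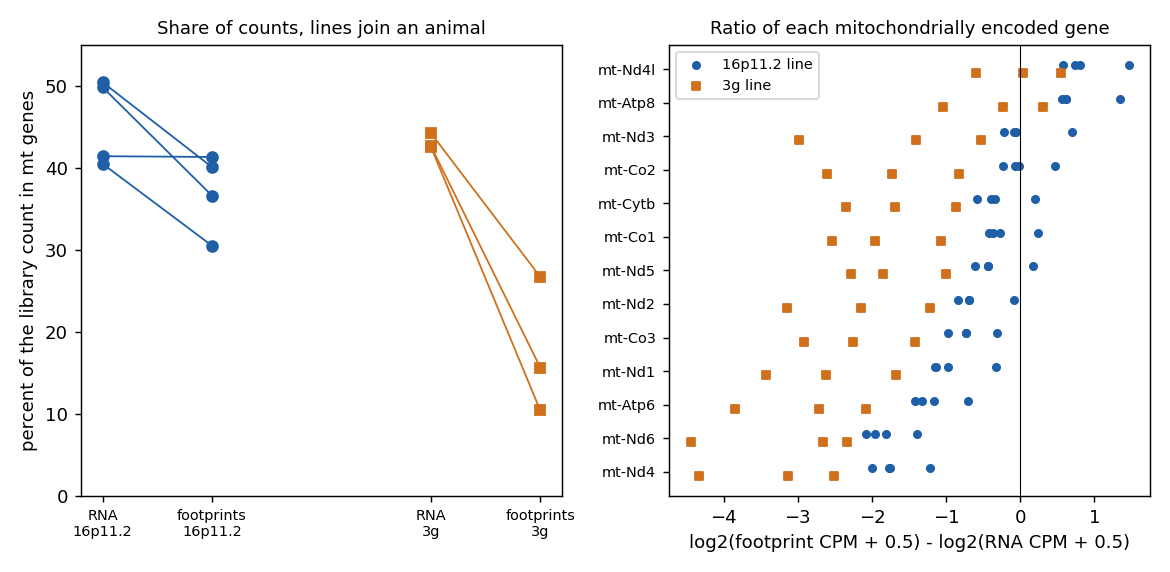
Left, percent of the count of each library in mitochondrially encoded genes, with a line joining the RNA and footprint libraries of an animal, which falls more steeply in the 3 animals of the 3g line than in the 4 of the 16p11.2 line. Right, log2 footprint to RNA ratio of each of the 13 genes in each animal, from CPM with 0.5 added (horizontal axis), where mt-Nd4 and mt-Nd6 have the lowest and mt-Atp8 and mt-Nd4l the highest ratios.

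mt-Co1, the catalytic subunit of cytochrome c oxidase, had footprints of 14718 to 76760 CPM (median 54206) and RNA of 64929 to 98586 CPM (median 84631). Its log2 ratio was -0.24 in the 16p11.2 line and -1.88 in the 3g line, and the lines did not overlap. The difference was 1.65 ± 0.35 (edgeR's quasi-likelihood test, adjusted p = 0.0328), and 5 of 15 alternatives called it, with values between 1.26 and 2.05. mt-Co2, of the same enzyme, differed by 1.76 ± 0.34 and mt-Atp6, of ATP synthase, by 1.71 ± 0.35. The genes also differed from each other in both lines. mt-Nd4 and mt-Nd6, both of complex I, were at -2.36 ± 0.29 and -2.34 ± 0.25 over the 7 animals, whereas mt-Nd4l, which lies on 1 transcript with mt-Nd4, was at 0.51 ± 0.19 and mt-Atp8, which lies on 1 transcript with mt-Atp6, at 0.32 ± 0.23 and not called. Each of these pairs overlaps in the mitochondrial genome, so reads in the overlap can be counted for either gene. mt-Nd6 is the only protein gene of the other strand, and without strand in the counting its reads cannot be told apart from those of transcripts across from it.

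The 20 other genes called between the lines were 18 higher in the 16p11.2 line and 2 higher in the 3g line. The largest differences were those of 1700067K01Rik (3.24 ± 0.53), Mapk15, an atypical MAP kinase (2.73 ± 0.60, called in 3 of 13 alternatives with values from 0.33 to 3.48), Smim20, a small protein of the inner mitochondrial membrane (2.60 ± 0.41), Slc52a2, a riboflavin transporter (1.97 ± 0.32), Cnot3, of the deadenylase complex that shortens poly(A) tails (1.82 ± 0.28), and Tatdn1, a nuclease (1.77 ± 0.33). The footprints of Smim20 were 124, 81.9, 59.0 and 79.3 CPM in the animals of the 16p11.2 line and 7.60, 26.3 and 13.6 CPM in those of the 3g line. Its RNA was between 14.4 and 17.9 CPM in all 7, so the lines were apart in footprints alone. 1700067K01Rik had 153, 137, 72.8 and 114 CPM of footprints in the 16p11.2 line and 5.70, 3.76 and 19.4 CPM in the 3g line, with RNA between 2.03 and 3.68 CPM. Only these 2 of the 28 genes were called under all alternatives that gave a value for them (13 each). In the other direction, Fzd8, a Wnt receptor, had a difference of -1.50 ± 0.32 and Sertad4 of -1.31 ± 0.29. RIBO-498 of the 16p11.2 line, with 607 CPM of Fzd8 footprints, lay within the 575 to 884 CPM of the 3g line, and the other 3 animals of its line had 115, 155 and 172 CPM.

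A part of these genes had footprint levels that went up and down together over the animals. Slc52a2 had 259, 673, 384 and 291 footprint counts in RIBO-498, RIBO-499, RIBO-505 and RIBO-517 and 37, 67 and 174 in RIBO-300, RIBO-301 and RIBO-318. Tatdn1, an unrelated gene, had between 312 and 646 in the 16p11.2 line and 48, 80 and 194 in the 3g line, in the same order. The counts of Tatdn1 were between 0.960 and 1.30 times those of Slc52a2 in every library, although their mean RNA levels were 2301 and 24.1 CPM. Pex13, Dennd4a, Rbm39, Cnot3, Akap5 and Ppp1r15b also had a correlation with the footprint level of Slc52a2 above 0.95 over the 7 animals, as did 35 of the 6583 genes with a mean of at least 20 CPM (0.532%), which is given as a description of these 7 libraries. The genes named were picked for a higher ratio in the 16p11.2 line, as was Slc52a2, which by itself raises their correlation with it. Whether such genes share a sequence that reads could be assigned to was not tested.

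**Figure D5:**
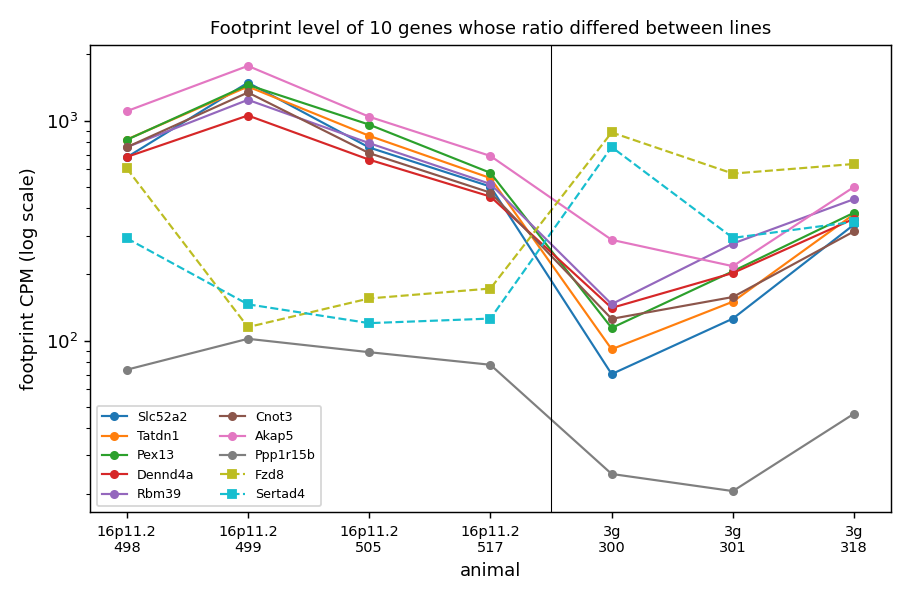
Footprint CPM on a log scale (vertical axis) in each of the 7 animals (horizontal axis) for Slc52a2 and 7 genes whose footprints followed it (solid lines) and for Fzd8 and Sertad4 (dashed lines), with a vertical line between the lines of mice. Slc52a2 runs from 70.3 CPM in RIBO-300 to 1489 CPM in RIBO-499, and Fzd8 is at 607 CPM in RIBO-498 of the 16p11.2 line, within the range of the 3g line.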

How the data were processed

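Per the labels, RNA libraries were made from the lysate used for the footprint libraries, and the authors deposited a raw count per gene for each line and assay. The submitters' processing notes name Bowtie2 and mm39. The feature counted, the strand setting and the handling of shared reads are not given in the sources used here. Rows without a symbol were kept (18377 of 18411 genes had one). Genes passing filterByExpr by assay were tested in R 4.3.3 with edgeR 4.0.16 (TMM, quasi-likelihood test, assay with the animal as a block, limma 3.58.1 as its base), and the line difference was the interaction of assay and line. The deviation of each footprint library from its group correlated with that of its own RNA library at 0.042 to 0.414 (2742 genes), and with that of any other animal of its line at 0.121 at most. For RIBO-301 these were 0.042 and 0.028, so the pairing there rests on the name alone. Libraries were paired by the number in their names, taken as 1 animal, which the labels do not spell out, so p-values measure the spread between these samples, which may be technical. DESeq2 1.42.0 was an alternative. Scripts were tested on simulated data. A ratio of 1 animal used CPM with 0.5 added, and a level was plain CPM. In a fold given as a limit, 3 counts stood for a count of 0. Named were the 12 genes with the highest and the 12 with the lowest ratio among genes called alike in both lines at a mean of at least 20 CPM, the 6 largest line differences in each direction, list members at the extremes or described by role, and Taok2, Sez6l2 and Mvp. Values of further genes were added after they were seen, as was the pyrimidine search. Members and lists were chosen with earlier results of these data known. Intervals and limits cover counting error only. Some items are not reported here.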

Additional observations from a re-analysis of the deposited data

Results flagged for a closer look

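In 10 of 122 sets of values 1 animal lay far from the others of its set (beyond Dixon's critical value), where chance would give about 1 in 20. RIBO-300 of the 3g line was the animal in 6 of them. Its log2 ratio was the lowest of 7 for Ano9 (5.138, next 8.271) and Olfr1331 (3.105, next 6.51) and the highest for Gm11938 (9.2, next 5.648) and Gm281 (10.05, next 8.565). Its median for projection neuron genes was the lowest (-0.6117, next -0.3103) and that for collagens and basement membrane the highest (1.634, next 1.29). Rpl39 was lowest in RIBO-318 (-5.637, next -3.973). RIBO-498 was lowest of the 4 animals of the 16p11.2 line for Kansl1l (-4.037, next -2.974), for the median of oligodendrocyte genes (-0.3213, next 0.1266) and for that of mitochondrial ribosomal proteins (-0.2703, next -0.01687).

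The ratio differed between the lines by the interaction of assay and line in edgeR, 16p11.2 minus 3g, by 3.242 for 1700067K01Rik, 2.726 for Mapk15, 2.598 for Smim20, 1.967 for Slc52a2, 1.816 for Cnot3, 1.773 for Tatdn1, -1.308 for Sertad4 and -1.498 for Fzd8. The median difference of the 13 mitochondrially encoded genes was 1.587, with 8 of them called.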

How the results depend on the processing

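Depth limits the footprint side: 3 counts are 5.17 to 7.89 CPM there. Of 163 named ratios, 141 kept direction and call in every alternative run, 18 lost the call in at least 1 and 4 reversed. Of the 28 line differences, 2 kept the call in every alternative that gave a value. The causes were not tested.

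Under library totals alone the split over 7 animals was 67.9% higher (47.6% with TMM), 6 genes were called between lines, and the medians were -1.73 for ribosomal proteins, 1.35 for granins, 1.52 for collagens, 1.96 for histones and -0.53 for Zfp genes, while Rplp1 (0.0911), Pfkp (0.0468), Nrgn (0.0699) and Selenop (0.0543) reversed. TMM without mitochondrially encoded genes gave 13 calls between lines. Without a filter 87 were called, r between lines was 0.597 and the ribosomal protein median -2.19. DESeq2 called 50 and gave r 0.884. Without the replicate block 3 were called. With RNA thinned to footprint depth, 3838 genes were called over 7 animals, 3632 in the 16p11.2 line, 3095 in the 3g line, 2457 alike in both lines and 4 between lines, r was 0.931, the medians were -1.95 for ribosomal proteins, 1.35 for granins, 1.36 for collagens, 2.36 for histones (3 tested) and -0.57 for Zfp genes, and Rplp1 was 0.0165. At least 2-fold, 4379 and 3950 genes were called over 7 animals and in the 16p11.2 line. Without genes under 1 CPM of RNA, a choice made after seeing the data, r was 0.768. Leaving out 1 animal in turn gave 6 (without RIBO-499) to 69 (without RIBO-318) calls between lines and r of 0.757 (without RIBO-318) to 0.804 (without RIBO-505).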

Other observations

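Immediate early genes, which neurons switch on with activity, had 7 of 24 members richer in footprints and 3 poorer (median log2 ratio 0.19). The 29.2% richer are near the 26.6% of all genes tested, and the 12.5% poorer are below their 29.3%. Egr4 (1.05 ± 0.20) and Junb (0.71 ± 0.16) were richer and Nr4a2 (-1.004 ± 0.25) was poorer, while Arc (0.13 ± 0.15) and Egr1 (-0.03 ± 0.13) were not called. Of 9 genes known for control by upstream reading frames 3 were poorer (33.3%, near the 29.3% of all genes tested) and none richer. Their median was 0.01 over the 7 animals but -0.39 and -0.63 in the fits of the 16p11.2 and 3g lines, and from -0.92 to 0.19 in single animals. Amd1 and Azin1, of polyamine synthesis, were at -2.07 ± 0.24 and -1.18 ± 0.14, and Atf4, the stress-response factor, was not called (0.15 ± 0.14).

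Selenoproteins, which read a stop codon as selenocysteine, had 7 of 21 members poorer and 3 richer (median 0.03). These 33.3% and 14.3% compare with 29.3% and 26.6% of all genes tested. Dio2, which activates thyroid hormone, was at -1.70 ± 0.17, Selenow at -1.05 ± 0.12 and Selenom at 1.13 ± 0.16. Of 31 proteasome subunits 11 were richer (35.5%) and 7 poorer (22.6%), not far from the 26.6% and 29.3% of all genes tested. Among them were 2 ATPases of the same ring, Psmc4 at 1.14 ± 0.22 and Psmc5 at -1.42 ± 0.17. Of 78 mitochondrial ribosomal proteins 18 were richer and 17 poorer (median 0.07), and these 23.1% and 21.8% are near or below the 26.6% and 29.3% of all genes tested. Of 16 endothelial markers 5 were richer (31.2%) and 2 poorer (12.5%). Of 5 erythrocyte genes 1 was richer (20%), Hbb-bt (1.17 ± 0.17), and 1 poorer (20%). The globin genes have near-identical copies, so their values are uncertain singly.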
